A study of Rattus norvegicus with 9 samples.

Results

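The TNF superfamily was followed in RBL-2H3 cells through 9 genes, matched by symbol to the rows of the 9 samples. They were the ligand genes Tnf, Tnfsf8, Tnfsf9, Tnfsf14 and Tnfsf13b and the receptor genes Tnfrsf12a, Tnfrsf9, Tnfrsf1a and Tnfrsf1b. The deposited files list 38490 gene rows, and 18006 of these, among them 8 of the 9, carry a value in at least 1 sample. RBL-2H3 is a rat basophilic leukemia line that serves as a model of MCs, and all samples come from this line. The 3 Ctrl samples are labelled untreated. The 3 IgE/DNP samples (DNP) received anti-DNP IgE at 50 ng/mL for 12 h and then the antigen DNP-HSA at 100 ng/mL for 4 h. The 3 PF1 samples (PF) received the same IgE and antigen, with PF added for 1 h before the antigen. The labels do not say what PF is, and its stimulation time is 4 h in one field of the labels and 4, 5 and 6 h for replicates 1, 2 and 3 in another. A second field of the labels gives sensitization and stimulation for every sample, Ctrl included, so it is not settled whether the Ctrl samples received IgE. The samples of a group are not said to be separate cultures, so the p-values measure the spread between these samples, which may be technical.

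TNF superfamily ligands are mostly membrane proteins that act as trimers on neighbouring cells, and some are cut from the surface to act at a distance. Their receptors have no enzyme activity of their own and pass the signal to adaptors, chiefly TRAF proteins or death domain proteins, which lead to NF-κB, to MAP kinases or to caspases. MCs are known for TNF, which they store in granules and make again after FcεRI crosslinking.

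The values were taken to be FPKM, fragments counted relative to transcript length and sequencing depth, so levels of different genes can be set side by side. Sample sums ran from 580702 to 591539 FPKM in Ctrl, from 573023 to 582577 FPKM in DNP and from 610206 to 630069 FPKM in PF. The number of reads is unknown. The relative depth of the samples, estimated from the spacing of low values in 9 genes, lay between 0.982 and 1.02. These genes were kept because their values were near whole multiples of each other across samples. That choice itself favours near-equal depths, so the estimate cannot show that the depths were equal. The labels give the tissue as peripheral blood and the cell type as blood corpuscle. Of 10 MC markers 8 had values, and the MC proteases Tpsab1 and Tpsb2 were listed without one. The summed level of the 8 ranged from 2739 to 2771 FPKM in Ctrl, from 2552 to 2586 FPKM in DNP and from 2694 to 2738 FPKM in PF samples, so it was lowest in the DNP samples. Of the 8, 1 was higher and 4 were lower in DNP than Ctrl, and 3 were higher and 2 lower in PF than DNP. In PF against Ctrl 3 were higher and 4 lower, opposite changes that the summed level does not show. Beside this, 14.7% of all genes tested were higher and 14.4% lower in DNP than Ctrl. In PF against DNP these shares were 18.1% and 30.7%, and in PF against Ctrl 23.1% and 34.6%. Summed markers of B cells did not pass 1.15 FPKM, those of macrophages 2.07 FPKM and those of fibroblasts 0.63 FPKM in any sample. The T cell sum was 6.92 to 10.2 FPKM and came almost wholly from Cd3e, with Cd3d at 0.11 FPKM or less and Cd2 without a value. Cd3e was higher (log2 fold change 0.25) and the macrophage marker Cd68 lower (log2 fold change -0.41) in PF than Ctrl, calls that were lost under 11 and 8 of the alternatives. The part of these markers in the results below was not tested, and in bulk RNA fewer cells of a type and less RNA per cell cannot be told apart.

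Promoters of 3 genes are shown because Tnfsf8 and Tnfrsf12a were higher after antigen and lower with PF, while Tnf was higher with PF. Each run holds the 250 bases before the annotated start, from RefSeq on the GRCr8 assembly, which is not the rn6 build named in the submitters' notes. The searched motifs, on both strands, were AP-1 (TGANTCA), CRE (TGACGTCA), EGR (GCGNGGGCG), the NFAT core (GGAAA), the TATA box (TATAAA) and the kappa-B consensus. Capitals mark matches other than to the NFAT core. Of the 9 genes, 8 had an entry, and Tnfsf9 had none.
Tnf, chr20:3626435-3626684, plus strand: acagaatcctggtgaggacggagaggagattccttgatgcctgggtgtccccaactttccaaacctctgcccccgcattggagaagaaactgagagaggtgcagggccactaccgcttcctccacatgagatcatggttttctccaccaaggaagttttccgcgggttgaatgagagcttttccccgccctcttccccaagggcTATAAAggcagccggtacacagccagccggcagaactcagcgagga
Tnfsf8, chr5:82292859-82293108, minus strand: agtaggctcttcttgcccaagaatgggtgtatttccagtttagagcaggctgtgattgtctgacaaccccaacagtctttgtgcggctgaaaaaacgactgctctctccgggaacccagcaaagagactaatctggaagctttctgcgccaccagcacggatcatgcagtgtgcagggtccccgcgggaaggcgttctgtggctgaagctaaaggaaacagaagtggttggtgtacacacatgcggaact
Tnfrsf12a, chr10:13213649-13213898, minus strand: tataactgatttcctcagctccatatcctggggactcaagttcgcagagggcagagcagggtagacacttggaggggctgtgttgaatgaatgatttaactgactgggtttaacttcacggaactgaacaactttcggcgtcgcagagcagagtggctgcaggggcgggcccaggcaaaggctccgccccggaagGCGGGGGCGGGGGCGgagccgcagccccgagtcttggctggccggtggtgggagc
In Tnf the capitals are a TATA box 46 to 41 bases before the start. In Tnfrsf12a they are 2 EGR matches, 55 to 47 and 49 to 41 bases before the start, which overlap each other. Tnfsf8 held no capital match, and NFAT cores were found 3 times in Tnf, 2 times in Tnfsf8 and 1 time in Tnfrsf12a. Of all 33365 promoters searched in the same way, 4.3% held an EGR match, 12.9% a TATA box and 56.9% an NFAT core. AP-1 matches were in 6.35%, CRE matches in 1.59% and kappa-B matches in 3.55%. Among the other members, Tnfrsf1b held 1 AP-1 match and Tnfsf14 held 1 kappa-B match. No match overlapped a match of another motif. A match describes the letters of the window and is not a bound site.

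Each comparison was tested with limma on log2(FPKM + 1) across all genes that reached 1 FPKM in 3 or more of its 6 samples, with Benjamini-Hochberg adjusted p-values and a threshold of 0.05. Log2 fold changes on this scale understate the change of low genes. The 3 comparisons share their samples pairwise, so their values stand side by side and are not independent of each other. Of the 9 genes, Tnf, Tnfsf8, Tnfsf9, Tnfrsf12a and Tnfrsf9 passed this filter. Tnfsf14, Tnfsf13b and Tnfrsf1a stayed below it in every comparison, and Tnfrsf1b was listed without a value in all 9 samples.

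Of the 5 members tested, Tnfsf8 and Tnfrsf12a were higher and Tnfsf9 was lower in DNP than in Ctrl samples. Across the 10392 genes tested, 14.7% were called higher and 14.4% lower. With the further condition that log2 fold change reach 1 in either direction, 0.346% of the genes were called, and among the members this held for Tnfrsf12a. In PF against DNP samples Tnf was higher, and Tnfsf8, Tnfsf9, Tnfrsf12a and Tnfrsf9 were lower. There 18.1% of 10329 genes were called higher and 30.7% lower, so 37.1% of the calls were upward. That share was 51.5% after scaling by median ratios and 16.8% after scaling all samples to their mean sum, and the members kept their calls under both. With a log2 fold change of at least 1, 2.36% of genes were called, and Tnfsf8 and Tnfrsf12a were among them. In PF against Ctrl samples Tnf was again the member that was higher, and the other 4 were lower, where 23.1% of 10361 genes were called higher and 34.6% lower. The upward share of calls was 40.0% there, 51.1% after scaling by median ratios, which left Tnfrsf12a uncalled, and 26.7% after scaling to the mean sum. Of all genes 3.37% passed the log2 minimum of 1, and Tnf, Tnfsf8 and Tnfsf9 did so, of which Tnfsf9 passed the filter through the Ctrl samples alone. In PF against DNP it passed through the DNP samples alone.

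**Figure D1:**
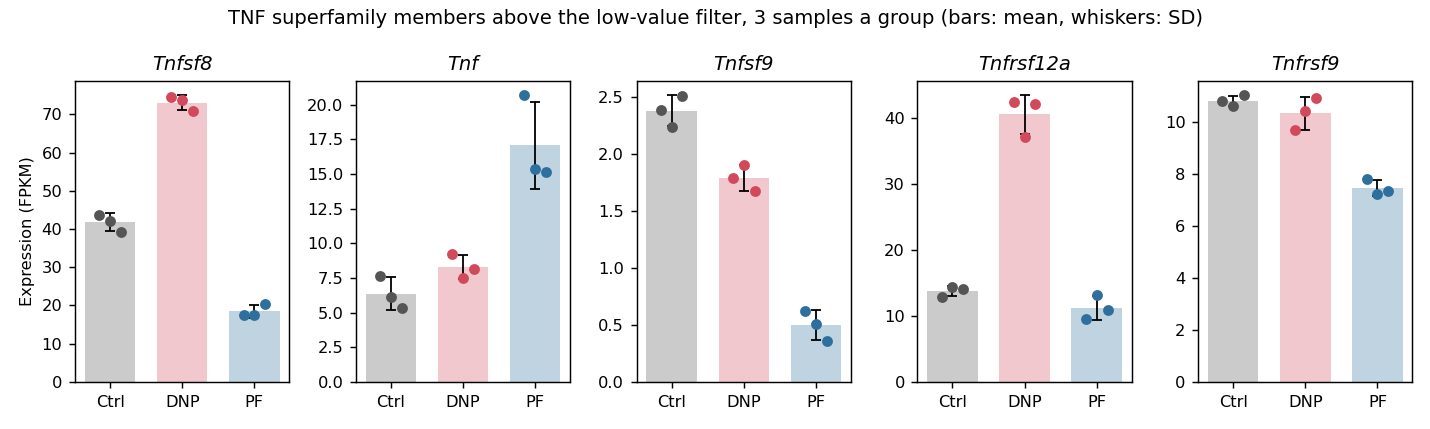
Expression in FPKM (vertical axes, each from 0) of the 5 members above the filter, with 1 point per sample, bars for the mean and whiskers for the SD of 3 samples of the Ctrl, DNP and PF groups. Tnfsf8 and Tnfrsf12a stand highest in DNP, and the 3 PF samples of Tnf, at 15.15 to 20.68 FPKM, lie above its other 6 samples.

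Tnfsf8 encodes CD30 ligand, a membrane ligand known from T cells and MCs. It was the member with the highest mean in every group. Its level was 43.77, 42.19 and 39.14 FPKM in Ctrl, 74.54, 73.64 and 70.77 FPKM in DNP, and 17.52, 17.49 and 20.47 FPKM in PF samples. All 3 DNP samples lay above all Ctrl samples, all PF samples lay below both groups, and no ranges overlapped. The means were 41.7 ± 2.35 FPKM in Ctrl, 73.0 ± 1.97 FPKM in DNP and 18.5 ± 1.71 FPKM in PF (SD, n = 3 each). Tnfsf8 thus rose 1.75-fold in DNP over Ctrl samples, by 0.79 on the log2 scale (SE 0.0469, limma adjusted p = 2.55e-05). In PF it fell to a level 3.95-fold below DNP, with a log2 fold change of -1.93 (SE 0.0605, limma adjusted p = 1.97e-07). It was also 2.25-fold lower in PF than in Ctrl, with a log2 fold change of -1.13 (SE 0.0701, limma adjusted p = 5.10e-06). For each of these differences the two-sided exact permutation test gave 0.1, the smallest p that 3 samples against 3 allow. The gene of its receptor CD30, Tnfrsf8, was listed without a value in all samples.

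Tnf encodes TNF, the ligand that the superfamily is named for. It was 7.63, 6.15 and 5.32 FPKM in Ctrl, 9.24, 7.49 and 8.15 FPKM in DNP, and 20.68, 15.4 and 15.15 FPKM in PF samples. Ctrl replicate 1 lay above DNP replicate 2, so these groups overlapped, while every PF sample lay above every other sample. The means were 6.37 ± 1.17, 8.29 ± 0.884 and 17.1 ± 3.12 FPKM (SD, n = 3 each). DNP against Ctrl gave a log2 fold change of 0.34 (SE 0.118, unadjusted 95% interval 0.07 to 0.61), which did not pass the threshold (limma adjusted p = 0.0606, two-sided exact permutation p = 0.2). Without Ctrl replicate 1 it passed, with 0.46 and an adjusted p of 0.0164, and over all alternatives the adjusted p ran from 0.0164 to 0.172. In PF Tnf rose 2.06-fold over DNP, by 0.95 on the log2 scale (SE 0.117, limma adjusted p = 2.14e-04). Against Ctrl the rise was 2.68-fold, with a log2 fold change of 1.29 (SE 0.140, limma adjusted p = 9.36e-05). With PF replicate 1 alone, which both fields of the labels place at 4 h, the log2 fold changes were 1.23 against DNP and 1.57 against Ctrl, in a fit that takes this lone sample to vary like the other group. The neighbouring genes Lta and Ltb encode the lymphotoxin subunits and flank Tnf in the RefSeq gene order. Lta was at 0.05 FPKM or less in every sample, below the filter, so it was not tested. Ltb was tested and not called in any comparison. Ltb was 5.18, 3.66 and 3.03 FPKM in Ctrl, 3.55, 2.85 and 2.93 FPKM in DNP, and 3.06, 4.41 and 1.41 FPKM in PF samples, with all groups overlapping.

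Tnfsf9 encodes the ligand of 4-1BB, a costimulator of T cells. It was low, at 2.39, 2.24 and 2.51 FPKM in Ctrl, 1.79, 1.9 and 1.68 FPKM in DNP, and 0.62, 0.51 and 0.36 FPKM in PF samples. The samples fell into 3 ranges without overlap, with Ctrl highest and PF lowest. DNP was 0.752 times Ctrl, or -0.28 on the log2 scale (SE 0.0819, limma adjusted p = 0.0352). This call was lost when any 1 of the 6 samples was left out, with adjusted p between 0.0553 and 0.103. PF was 3.60-fold lower than DNP (log2 fold change -0.90, SE 0.102, limma adjusted p = 1.29e-04) and 4.79-fold lower than Ctrl (log2 fold change -1.18, SE 0.0988, limma adjusted p = 2.38e-05). With a pseudocount of 0.1 in place of 1 these were -1.69 and -2.08. All PF samples were below 1 FPKM, so Tnfsf9 entered both fits through the other group alone and its calls there describe a difference that the filter required.

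Tnfsf14, for the ligand LIGHT, and Tnfsf13b, for the B cell survival factor BAFF, were near 0. Tnfsf14 was 0.45, 0 and 0 FPKM in Ctrl, 0.13, 0.1 and 0.1 FPKM in DNP, and 0, 0.06 and 0 FPKM in PF samples. Tnfsf13b was 0.17, 0.13 and 0.07 FPKM in Ctrl, 0.1, 0.11 and 0.07 FPKM in DNP, and 0.1, 0.03 and 0.03 FPKM in PF samples. For both genes the Ctrl and DNP ranges overlapped. For Tnfsf14 all DNP samples lay above the PF samples. In a fit with no filter Tnfsf14 passed the threshold in PF against DNP, with -0.12 on the log2 scale (limma adjusted p = 0.0250), at levels where the size of a change cannot be read. Among receptors of these ligands, Tnfrsf14 did not pass 0.4 FPKM and Tnfrsf13c did not pass 0.21 FPKM in any sample.

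Among the receptors, Tnfrsf12a had the largest change from Ctrl to DNP of the 5 members tested. It encodes Fn14, the receptor of TWEAK and a gene known to be induced by growth factors. Its level was 12.87, 14.36 and 14.14 FPKM in Ctrl, 42.4, 37.23 and 42.1 FPKM in DNP, and 9.53, 13.22 and 10.92 FPKM in PF samples. The DNP samples stood far above both other groups, and PF replicate 2 lay within the Ctrl range. The means were 13.8 ± 0.804, 40.6 ± 2.90 and 11.2 ± 1.86 FPKM (SD, n = 3 each). Tnfrsf12a rose 2.94-fold in DNP over Ctrl, by 1.49 on the log2 scale (SE 0.0637, limma adjusted p = 3.16e-06). It was 3.62-fold lower in PF than DNP, with a log2 fold change of -1.77 (SE 0.101, limma adjusted p = 2.54e-06). PF against Ctrl gave -0.28 (SE 0.103, limma adjusted p = 0.0424), with a two-sided exact permutation p of 0.2. That last call was lost without Ctrl replicate 2 (limma adjusted p = 0.111), Ctrl replicate 3 (0.0927) or PF replicate 3 (0.0944). It was also lost without PF replicate 1, which moved the log2 fold change to -0.18 (limma adjusted p = 0.133). The same held with no filter on low values or after scaling by median ratios. With PF replicate 1 alone, which both fields of the labels place at 4 h, the log2 fold change was -0.49. That fit takes this lone sample to vary like the Ctrl group.

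Tnfrsf9 encodes 4-1BB itself, an activation marker of lymphocytes. It was 10.79, 10.62 and 11.01 FPKM in Ctrl, 9.66, 10.39 and 10.91 FPKM in DNP, and 7.81, 7.22 and 7.34 FPKM in PF samples. DNP and Ctrl samples overlapped, and the PF samples lay below all others. DNP against Ctrl gave a log2 fold change of -0.06, with an unadjusted 95% interval of -0.19 to 0.07 (limma adjusted p = 0.453, two-sided exact permutation p = 0.3). PF was 1.38-fold lower than DNP (log2 fold change -0.42, SE 0.0635, limma adjusted p = 6.91e-04) and 1.45-fold lower than Ctrl (log2 fold change -0.48, SE 0.0568, limma adjusted p = 1.49e-04).

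The 2 TNF receptors were the members with the least signal. Tnfrsf1a, for the widely expressed death domain receptor TNFR1, was listed at 0 in 8 samples and at 0.03 FPKM in DNP replicate 1. Tnfrsf1b, for TNFR2, had no value in any sample. A listed 0 or a missing value was not taken as a measure of absence, since the read depth is unknown and the sources do not say what a missing value means. Of the 20484 rows without a value, 5262 are protein-coding genes. No change in either receptor could be assessed.

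**Figure D2:**
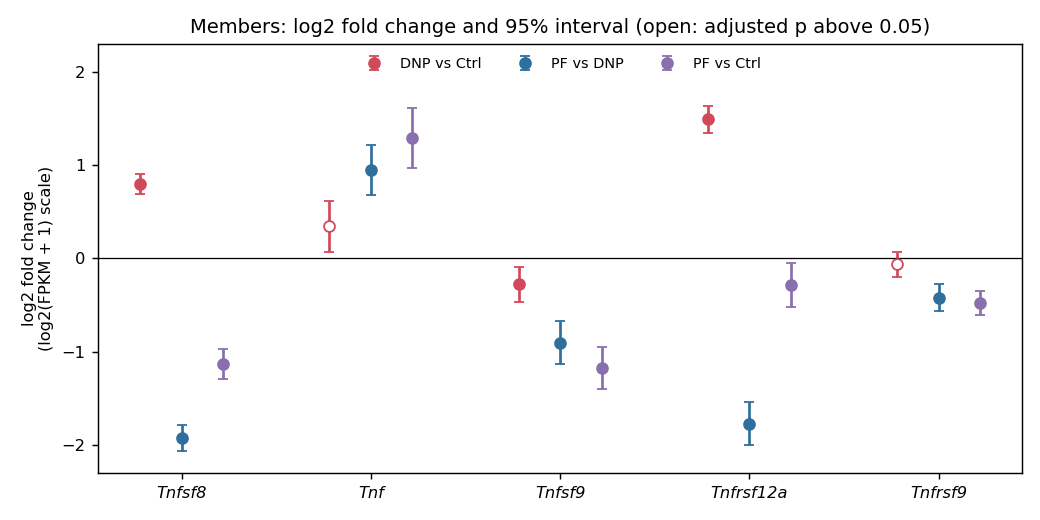
Log2 fold change on the log2(FPKM + 1) scale (vertical axis) of the 5 tested members in DNP vs Ctrl, PF vs DNP and PF vs Ctrl, with whiskers for the unadjusted 95% interval of limma and open points for an adjusted p above 0.05. Tnf lies above 0 in all 3 comparisons, while Tnfsf8 and Tnfrsf12a lie above 0 in DNP vs Ctrl and below 0 in both PF comparisons.

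Ranked by mean FPKM, the members stood in the order Tnfsf8, Tnfrsf12a, Tnfrsf9, Tnf and Tnfsf9 in both Ctrl and DNP, and no neighbours in this order overlapped in range. In PF the order was Tnfsf8, Tnf, Tnfrsf12a, Tnfrsf9 and Tnfsf9. There the ranges of Tnfsf8 and Tnf overlapped, so these neighbours did not differ beyond their spread. Mean Tnfsf8 was 73.0 FPKM in DNP beside a mean Tnf of 8.29 FPKM, and in PF the means were 18.5 and 17.1 FPKM.

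The rest of the superfamily was taken from a list of 13 other ligands and 21 other receptors. Of these ligands 9 had values and 4 passed the filter, namely Tnfsf12, Tnfsf15, Faslg and Ltb. In DNP against Ctrl none of the 4 was called higher and 2 were lower (median log2 fold change -0.33, beside -0.01 over all genes). In PF against DNP 1 of the 4 was lower (median -0.17, beside -0.04), and in PF against Ctrl 3 were lower (median -0.58, beside -0.05). The shares of all genes called lower were 14.4%, 30.7% and 34.6% in these comparisons, and those called higher 14.7%, 18.1% and 23.1%. Tnfsf12, which encodes TWEAK, the ligand of the Tnfrsf12a product, was 18.22, 22.01 and 21.07 FPKM in Ctrl, 15.3, 13.25 and 16.92 FPKM in DNP, and 12.83, 14.22 and 12.16 FPKM in PF samples. Ctrl lay above the other groups, which overlapped. Its log2 fold change was -0.41 in DNP against Ctrl (limma adjusted p = 0.0138), opposite in sign to that of its receptor, a call lost without Ctrl replicate 2 (adjusted p = 0.0502) and at a threshold of 0.01. It was -0.61 in PF against Ctrl (adjusted p = 3.13e-04). Tnfsf15, for the endothelial and myeloid ligand TL1A, lies next to Tnfsf8 in the RefSeq gene order. It was 4.22, 2.38 and 3.4 FPKM in Ctrl, 4.26, 3.82 and 4.54 FPKM in DNP, and 0.46, 0.54 and 1.1 FPKM in PF samples. Ctrl and DNP overlapped and PF lay below both, with log2 fold changes of -1.63 against DNP (limma adjusted p = 2.55e-05) and -1.35 against Ctrl (adjusted p = 3.57e-04). With 1 PF sample at 1 FPKM or more, Tnfsf15 passed the filter through the group where it was high. Faslg, for the death ligand of Fas, was 1.88, 1.84 and 2.05 FPKM in Ctrl, 1.14, 0.97 and 1.54 FPKM in DNP, and 1.16, 0.92 and 0.89 FPKM in PF samples. It was lower in DNP (log2 fold change -0.41, limma adjusted p = 0.0269) and in PF (-0.56, adjusted p = 0.00105) than in Ctrl, and the first of these calls was lost under 7 of the alternatives. Faslg also had 1 PF sample at 1 FPKM or more, so in PF against Ctrl it passed the filter through the Ctrl samples. Tnfsf4, Cd40lg, Cd70 and Tnfsf11 were listed without values.

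Of the 21 other receptors 17 had values, and most of these stayed below the filter. Relt, an orphan receptor of lymphoid tissue, was 4.95, 5.51 and 5.72 FPKM in Ctrl, 7.48, 6.97 and 8.16 FPKM in DNP, and 6.01, 6.28 and 6.38 FPKM in PF samples. The groups did not overlap, with DNP highest. It rose in DNP over Ctrl (log2 fold change 0.42, limma adjusted p = 0.00562) and was lower in PF than DNP (-0.24, adjusted p = 0.0194), a call that 5 of the alternatives ended. Cd40 was tested in the PF comparisons and not called, at 0.57 to 1.29 FPKM over all samples. Fas was listed at 0 in 8 samples, and Ltbr, Tnfrsf8, Tnfrsf17 and Tnfrsf19 had no value. Over all 43 genes of the superfamily list, members included, 10 were tested in DNP against Ctrl, with 3 higher and 3 lower. In each PF comparison 11 were tested, with 1 higher, which was Tnf. Against DNP 6 were lower, and against Ctrl 7 were lower. The shares of all genes called higher and lower were 14.7% and 14.4% in DNP against Ctrl. They were 18.1% and 30.7% in PF against DNP, and 23.1% and 34.6% in PF against Ctrl. Among the lower genes, Tnfsf9 and Tnfsf15 passed the filter in both PF comparisons through the group where they were high. The same held for Faslg against Ctrl.

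**Figure D3:**
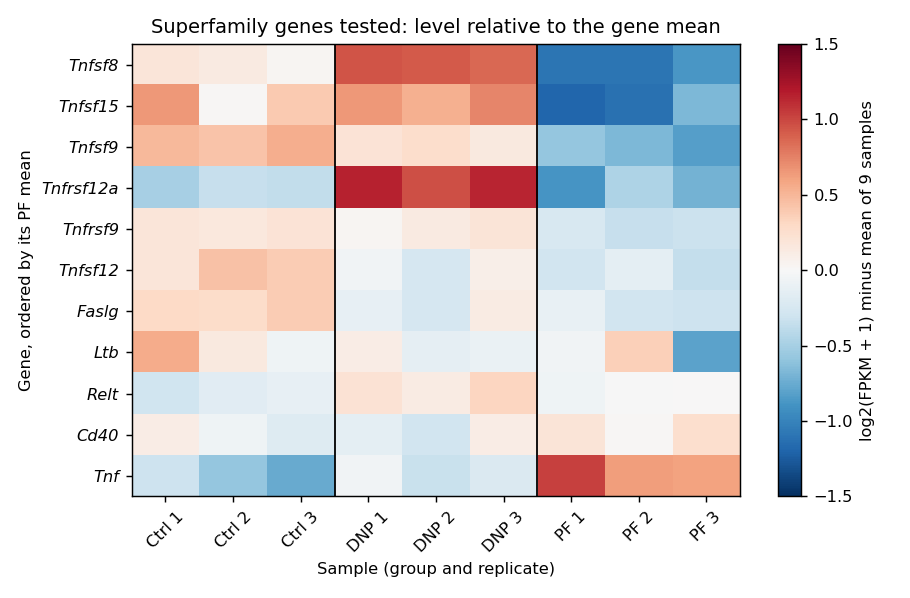
Level of the 11 superfamily genes tested (rows, ordered by their PF mean) in each of the 9 samples (columns), as log2(FPKM + 1) minus the gene's mean over the 9 samples, red above and blue below it. Tnf, in the bottom row, is red in the 3 PF samples, while Tnfsf8 and Tnfsf15, in the top rows, are blue there.

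The adaptors and kinases that TNF receptors use were covered by a list of 20 genes, all of which passed the filter in at least 1 comparison. Like the other lists, it was chosen with earlier results of these data known, so these counts are not a test of it. In DNP against Ctrl 1 of 20 was higher, 3 were lower and 16 were not called (median log2 fold change -0.06), beside 14.7% of all genes higher and 14.4% lower. In PF against DNP 15 of 19 were lower, 1 was higher and 3 were not called (median -0.52, beside -0.04 over all genes, of which 30.7% were lower and 18.1% higher). In PF against Ctrl 17 of 20 were lower and 2 were higher (median -0.58), beside 34.6% and 23.1% of all genes. Among the 17 was Map3k14, at 0.43, 0.44 and 0.62 FPKM in PF samples. It entered that fit through the Ctrl samples alone, so its call there describes a difference that the filter required. The lower genes included adaptors of several receptors. Birc3, for the ubiquitin ligase cIAP2, was 72.5, 70.6 and 70.36 FPKM in Ctrl, 62.42, 59.28 and 59.72 FPKM in DNP, and 26.87, 23.22 and 27.51 FPKM in PF samples. The groups did not overlap. PF against DNP gave a log2 fold change of -1.20 for Birc3 (limma adjusted p = 1.39e-06), -1.15 for Traf1 (4.30e-05), -1.04 for Traf2 (7.25e-06) and -0.87 for Traf5. Traf2 encodes an adaptor that binds CD30, 4-1BB and other receptors without a death domain. Traf1, a partner of Traf2 that NF-κB induces, was 6.11, 7.44 and 6.93 FPKM in Ctrl, 8.84, 8.14 and 8.86 FPKM in DNP, and 2.64, 3.86 and 3.6 FPKM in PF samples. It was the adaptor that was higher in DNP than Ctrl (log2 fold change 0.30, limma adjusted p = 0.0204), and 6 of the alternatives ended that call. Birc3, Traf2 and Tab2 were the 3 that were lower there, by -0.23, -0.27 and -0.21 on the log2 scale.

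Enzymes that edit ubiquitin chains below these receptors, and their partners, formed a list of 12, of which 11 were tested. In DNP against Ctrl 1 was higher and 5 were lower (median -0.17), in PF against DNP 1 was higher and 5 were lower (median -0.21), and in PF against Ctrl 1 was higher and 7 were lower (median -0.32). Over all genes the shares called were 14.7% higher and 14.4% lower in DNP against Ctrl, 18.1% and 30.7% in PF against DNP, and 23.1% and 34.6% in PF against Ctrl. The gene that was higher in PF was Tnfaip3, for the NF-κB inhibitor A20, at 104.35, 106.73 and 95.16 FPKM in Ctrl, 110.1, 107.16 and 104.54 FPKM in DNP, and 161.76, 154.48 and 156.91 FPKM in PF samples. All PF samples lay above the others. Its log2 fold change was 0.55 against DNP (limma adjusted p = 3.62e-06) and 0.62 against Ctrl (adjusted p = 1.63e-05), the same direction as Tnf. Otud7b, for the deubiquitinase Cezanne, was 16.08, 15.42 and 16.04 FPKM in Ctrl, 23.29, 25.68 and 23.94 FPKM in DNP, and 7.09, 7.75 and 8.49 FPKM in PF samples. The groups were apart with DNP highest and PF lowest, as for Tnfsf8. Otud7b rose by 0.59 on the log2 scale in DNP over Ctrl (limma adjusted p = 1.69e-04) and had a log2 fold change of -1.53 in PF against DNP (adjusted p = 7.91e-07). Traf3ip2 was lower in all 3 comparisons, with log2 fold changes of -0.40, -0.68 and -1.07 in the order DNP against Ctrl, PF against DNP and PF against Ctrl.

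Proteins that cut or mature the ligands were covered by a list of 9, of which 7 were tested. In DNP against Ctrl 1 was higher and 1 was lower (median 0.10), in PF against DNP 4 were lower (median -0.23), and in PF against Ctrl 1 was higher and 4 were lower (median -0.11). Over all genes 14.7% were higher and 14.4% lower in DNP against Ctrl. These shares were 18.1% and 30.7% in PF against DNP, and 23.1% and 34.6% in PF against Ctrl. The medians over all genes were -0.01, -0.04 and -0.05 in the same order. Adam17 encodes TACE, the protease that releases TNF from the surface. It was 13.43, 12.49 and 14.51 FPKM in Ctrl, 14.18, 14.06 and 13.28 FPKM in DNP, and 11.25, 11.4 and 12.25 FPKM in PF samples. Ctrl and DNP overlapped, and PF was below both. Its log2 fold change was -0.23 in PF against DNP (limma adjusted p = 0.00717). The PF against Ctrl value of -0.20 lost its call under 8 of the alternatives. Rhbdf2, for the iRhom that brings TACE to the surface, was 5.3, 4.92 and 4.71 FPKM in Ctrl, 5.36, 5.86 and 5.02 FPKM in DNP, and 2.48, 2.43 and 2.67 FPKM in PF samples. PF lay below the overlapping Ctrl and DNP ranges. The log2 fold change was -0.86 in PF against DNP (limma adjusted p = 3.50e-05), and that of Furin, a proprotein convertase that matures TACE and several ligands, was -1.27 (adjusted p = 2.12e-06). Adam10, another sheddase, rose by 0.72 in DNP over Ctrl (limma adjusted p = 1.49e-04) and was lower in PF than DNP, with -0.61 (adjusted p = 1.50e-04). The Tnf transcript was higher in PF samples in which Adam17, Rhbdf2 and Furin transcripts were lower.

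Genes known to respond to TNF through NF-κB formed a list of 16, of which 9 were tested. In DNP against Ctrl 3 were higher and 3 lower (median -0.01). In PF against DNP 8 of 9 were lower and 1 was higher (median -0.78), and in PF against Ctrl 6 were lower and 2 higher (median -0.44). The shares of all genes called lower were 14.4%, 30.7% and 34.6% in these comparisons, and those called higher 14.7%, 18.1% and 23.1%. Relb, a subunit of the noncanonical NF-κB pathway, was 7.27, 7.41 and 7.16 FPKM in Ctrl, 7.0, 6.93 and 6.45 FPKM in DNP, and 0.73, 1.16 and 0.83 FPKM in PF samples. The PF samples stood far below the rest, with log2 fold changes of -2.04 against DNP (limma adjusted p = 1.06e-06) and -2.12 against Ctrl. With 1 PF sample at 1 FPKM or more, Relb too passed the filter through the group where it was high. Nfkb1, for the p50 precursor, was at -1.27 in PF against DNP (limma adjusted p = 3.16e-07), and Nfkb2, for the p52 precursor, at -0.79. The chemokine gene Ccl2 was 218.0, 241.86 and 211.57 FPKM in Ctrl, 650.2, 669.14 and 710.35 FPKM in DNP, and 246.65, 276.31 and 295.5 FPKM in PF samples. No groups overlapped. Ccl2 rose by 1.59 on the log2 scale in DNP over Ctrl (limma adjusted p = 1.16e-06) and had a log2 fold change of -1.31 in PF against DNP. Ptgs2, for cyclooxygenase-2, rose by 0.65 in DNP over Ctrl (limma adjusted p = 1.69e-04). Genes of this list answer to other signals as well as TNF.

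**Figure D4:**
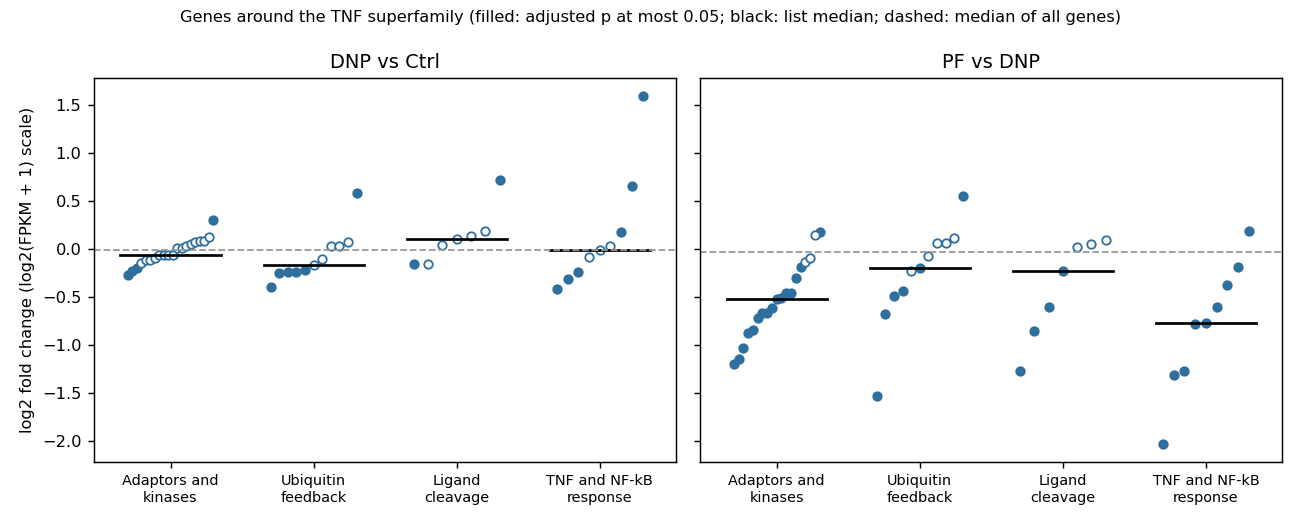
Log2 fold change on the log2(FPKM + 1) scale (vertical axis) of each tested gene in 4 lists (horizontal axis), in DNP vs Ctrl (left) and PF vs DNP (right), with filled points for an adjusted p of at most 0.05, a black line for the list median and a dashed line for the median of all genes tested. In PF vs DNP the medians are -0.52 for adaptors and kinases and -0.78 for TNF and NF-κB response genes, beside -0.04 for all genes. The lists were chosen with earlier results of these data known, and their medians were not tested.

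Genes with the most similar pattern were looked for among 10200 genes tested in all 3 comparisons, by the distance between the group means of log2(FPKM + 1) after centring, over 3 groups. For Tnfsf8 the closest were Socs3, a feedback inhibitor of cytokine receptors (distance 0.0657), Tlr13, a receptor for bacterial RNA (0.0768), and Rfxapl1 (0.182). Mean Socs3 was 9.43, 17.7 and 3.61 FPKM in Ctrl, DNP and PF. For Tnfrsf12a they were Maff, a small basic leucine zipper protein (0.173), Zswim4 (0.270) and Rabgef1 (0.273), and mean Maff was 2.96, 8.50 and 1.86 FPKM. For Tnf they were the histone gene Hist1h2bf (0.0341), LOC100910177 (0.0842) and Rwdd2a (0.136). Mean Hist1h2bf was 1.67, 2.25 and 5.25 FPKM, and it belongs to a family of near-identical genes between which reads can be split. For Tnfsf9 they were LOC102548231 (0.0151), LOC102548917 (0.0226) and Fiz1 (0.0248), the last with means of 8.69, 7.03 and 3.21 FPKM. These distances describe 3 group means and carry no test.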

How the data were processed

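RNA-seq values of RBL-2H3 cells were used from 3 Ctrl, 3 DNP and 3 PF samples, grouped by the labels. By the study's methods and the submitters' notes, the authors filtered reads with SOAPnuke, mapped them with HISAT2 2.0.4 (build rn6), quantified genes with RSEM 1.2.12 over Bowtie2 2.2.5 and tested them with DESeq2. The labels name Illumina protocols, the methods a BGISEQ-500. The authors deposited 1 value per gene and sample, read here as FPKM, since the heading names no unit and the values have decimals and unequal sums. Strandedness is not given in the sources used here. FPKM holds no counts, so no count test was run, the read depth is unknown and precision rests on 3 replicates.

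Genes that reached 1 FPKM in 3 or more of the 6 compared samples were tested with limma 3.58.1 in R 4.3.3 (lmFit, eBayes with trend) on log2(FPKM + 1), each comparison on its own samples, with Benjamini-Hochberg adjustment over all genes tested. For single members, exact permutation tests (two-sided) were run as well. The members and lists were chosen with earlier results of these data known. Besides the 9 members, at most 4 called genes per list and comparison were named by absolute log2 fold change, and the 3 most similar genes of each member past a log2 fold change of 1. Lta, Ltb, Cd40 and genes at or near 0 are given to complete the superfamily. Alternatives were a pseudocount of 0.1, no filter, all groups in 1 fit, a replicate block, each sample left out, 2 scalings, a threshold of 0.01, no trend, and PF replicate 1 alone.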

Additional observations from a re-analysis of the deposited data

How the results depend on the processing

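Of 15 member results, 10 had the same sign and the same call under every alternative. Another 2, Tnfsf9 in PF against DNP and in PF against Ctrl, did so where they could be tested, and had no value under 3 alternatives each. No result of a member or another named gene reversed. The other 3 were Tnf and Tnfsf9 in DNP against Ctrl and Tnfrsf12a in PF against Ctrl. At a threshold of 0.01, 1469 genes were called in DNP against Ctrl in place of 3031. Leaving out 1 sample gave 2099 to 2736 genes called in DNP against Ctrl, 4138 to 4796 in PF against DNP and 5147 to 5541 in PF against Ctrl. The members called were then 2 to 3, 4 to 5 and 3 to 5, respectively. In the PF comparisons Tnfsf9 fell below the filter without any 1 DNP or Ctrl sample, and without Ctrl replicate 2 or 3 Tnfrsf12a was lost as well, which left 3. With no filter the adjusted p was 0.0634 for Tnfsf9 in DNP against Ctrl and without trend it was 0.0589 for Tnfrsf12a in PF against Ctrl. Of 68 results of other named genes, 54 kept their call under every alternative and 14 lost it under at least 1.

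Deviations of same-numbered samples from their group means were correlated across genes by -0.08 to 0.19, so the numbers were not taken as pairs. With a replicate block 2697, 4675 and 6009 genes were called in DNP against Ctrl, PF against DNP and PF against Ctrl. Under this replicate block Tnf passed the threshold in DNP against Ctrl (limma adjusted p = 0.0264) and Tnfsf9 did not (0.0738).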
